A study of Mus musculus with 4 samples.

Results

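The neurotransmitter receptor genes Gabbr1, Grin1, Chrna7 and Chrnb2, written here as the 4 members, were followed across 4 RNA-seq libraries. They were picked by symbol, with their splicing events found by coordinates, out of 17233 genes with exon reads and 228333 listed events. The choice was made with values of these libraries in view, so their levels and the inclusion of the Gabbr1 exon are given as a description. Of the listed events, 64 belong to the members: 29 to Gabbr1, 23 to Grin1, 8 to Chrna7 and 4 to Chrnb2. The cells were N2A, a mouse neuroblastoma line. They carried a control shRNA (control cells), an shRNA to Ptbp1 (shptbp1 cells), an shRNA to Ptbp2 (shptbp2 cells) or both of the latter (doubly depleted cells), given with Lipofectamine to suspended cells for 5 h and followed by 3 days in culture. Transfection was transient and RNA came from the whole culture, so less RNA per cell and fewer expressing cells cannot be told apart. Strand-specific libraries were read as 100-base pairs, 1 library per group. There are no replicates, so no spread between cultures is known and no test was run. Intervals cover counting error or the deposited estimate only, and the 3 comparisons share the control library.

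Gabbr1 encodes the GABA-B receptor subunit that binds GABA. It works as a heterodimer with Gabbr2, the subunit that couples to G proteins. Grin1 encodes the obligatory GluN1 subunit of NMDA-type glutamate receptors, which need a GluN2 or GluN3 partner (Grin2 and Grin3 genes) to form the usual channels. Chrna7 encodes the nicotinic acetylcholine receptor subunit α7, which forms homomeric channels with high calcium permeability, and Chrnb2 encodes β2, which pairs with α subunits such as α4 and α3. PTBP1 and PTBP2 are pyrimidine-tract-binding splicing regulators, PTBP1 in most dividing cells and PTBP2 mainly in neurons. PTBP1 is known to repress many neuronal exons, the Gabbr1 exon described here among them.

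That exon is shown first because the results on Gabbr1 turn on it. It spans 151 nt, is the 15th of 23 exons of the full-length GABA-B1a transcript and lies at chr17:37204159-37204309 (mm9, plus strand) within the coding sequence. The letters come from the GENCODE M21 transcript on GRCm38, where the exon of the same structure is at chr17:37067214-37067364. Capitals mark the exon in the opening line, and in the line after it the stop codon reached when the neighbours are joined without it.
Gabbr1 alternative exon with its mRNA neighbours: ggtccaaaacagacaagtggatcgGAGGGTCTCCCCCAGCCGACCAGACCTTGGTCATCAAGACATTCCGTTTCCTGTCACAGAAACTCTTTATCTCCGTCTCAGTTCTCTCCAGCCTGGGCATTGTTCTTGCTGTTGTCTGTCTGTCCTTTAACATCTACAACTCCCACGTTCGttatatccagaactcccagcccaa
Gabbr1 junction without the exon, to the first stop: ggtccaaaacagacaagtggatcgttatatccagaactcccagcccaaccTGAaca
With all exons the reading frame ran for 960 codons to a stop in exon 23. Without the exon, whose length leaves 1 base over after division by 3, it ran for 577 codons to a stop in exon 16. That stop lies 824 bases before the last exon junction. A stop so far upstream is the usual mark of a target of nonsense-mediated decay, and GENCODE gives that biotype to a Gabbr1 transcript that lacks the exon.

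The shRNAs lowered their targets in the libraries labelled for them. Ptbp1 stood at 646 CPM (exon reads per M reads on the listed exons) in control, 189 in shptbp1 cells, 735 in shptbp2 cells and 144 in doubly depleted cells. That left 29.2% of control in shptbp1 cells and 22.3% in doubly depleted cells. Ptbp2 was at 97.6, 193, 25.4 and 41.6 CPM, so doubly depleted cells kept 42.6% of the control level of Ptbp2 and shptbp2 cells 26.0%. By FPKM, doubly depleted cells kept more Ptbp2, 58.4% of control (20.6 against 35.2 FPKM), which was under the 2-fold threshold used below, and shptbp2 cells 30.8%. Reads on the listed exons of named genes came to between 190.3 and 237 M per library. The sympathetic-lineage markers were present: all 8 were listed by FPKM (fragments per kilobase per M, rescaled within each library) and 7 of 8 reached 1 in control. Their summed FPKM was 364 in control, 443 in shptbp1 cells, 485 in shptbp2 cells and 412 in doubly depleted cells. Within that list Dbh, dopamine β-hydroxylase, moved with the knockdowns (16.3, 65.3, 6.12 and 18.2 FPKM); the part of such a shift in the results on the members was not tested. Glial markers listed under their own symbols (3 of 4) stayed at or below 0.574 FPKM, with Aqp4 at 0. Of the muscle markers 1 of 3 was listed by FPKM, Myog, at 0.007 at most. Of the immune markers 1 of 2 was listed, Ptprc, at 0.002 FPKM at most. These low values hold for the listed markers only. Myh3, on the muscle list and not listed by FPKM, was at 216 to 251 CPM in all 4 libraries.

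Gabbr1 was highest in shptbp1 cells and lowest in shptbp2 cells. Its FPKM was 9.48 in control (95% interval 8.87 to 10.1), 21.0 in shptbp1 cells (20.2 to 21.8), 7.43 in shptbp2 cells (6.99 to 7.87) and 13.6 in doubly depleted cells (13.2 to 13.9). No 2 of these intervals overlapped. Exon reads gave the same order, at 38.8, 101, 29.4 and 67.7 CPM. Relative to control, Gabbr1 in shptbp1 cells was 2.10-fold higher on the FPKM + 1 scale and 2.59-fold higher by exon reads.

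A gene was called by FPKM when it differed at least 2-fold on the FPKM + 1 scale, with at least 3 FPKM and intervals apart. By exon reads it was called when it differed at least 2-fold with at least 0.5 CPM. Fold values by FPKM are on the FPKM + 1 scale, while percentages of control by FPKM use FPKM itself. In shptbp1 cells Gabbr1 was the 1 member of 4 called higher by both rules. Each share over all genes is of the genes measured for that rule: 0.534% of 7114 were called higher there by both rules, 1.58% of 7533 by FPKM and 4.43% of 11298 by exon reads. No member was called lower there, where the shares were 0.141% by both rules, 0.876% by FPKM and 0.354% by exon reads. The FPKM call rests on the scale: with the deposited FPKM as given, or with a pseudocount of 5, no member was called higher. In doubly depleted cells Gabbr1 was 1.39-fold higher by FPKM and 1.74-fold higher by exon reads, under the threshold in both.

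**Figure D1:**
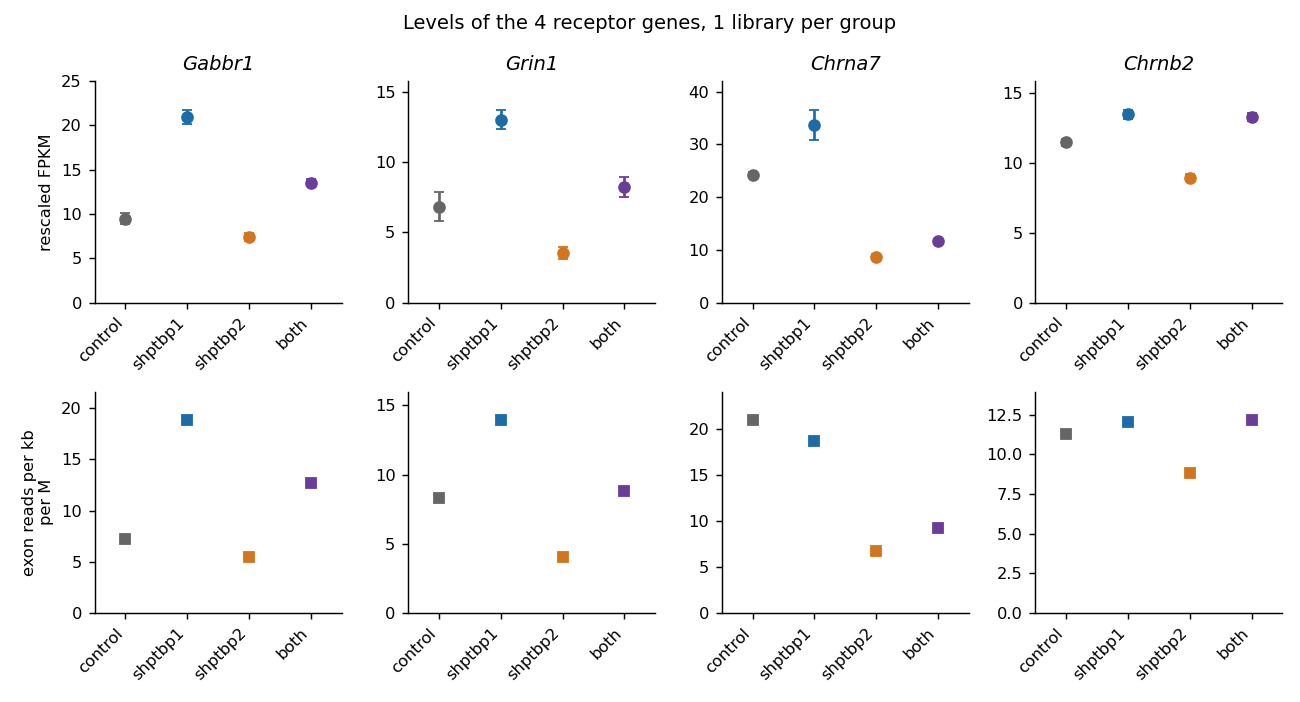
Levels of the 4 members in each library (1 library per group; shptbp1 and shptbp2 name the shRNA, and both the doubly depleted cells). The upper panels show rescaled FPKM with the deposited 95% interval and the lower panels exon reads per kilobase per M; every vertical axis starts at 0. Gabbr1 and Grin1 are highest in shptbp1 cells, while Chrna7 has 33.7 FPKM there against 24.3 in control but fewer exon reads.

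Inclusion of the 151-nt exon was higher than control in both libraries with Ptbp1 depleted and lower in shptbp2 cells. Reads into the exon numbered 58 in control, 284 in shptbp1 cells, 10 in shptbp2 cells and 226 in doubly depleted cells. Reads out of it numbered 97, 416, 28 and 361, and reads that joined its neighbours without it 46, 24, 50 and 11. Inclusion was taken as the average of the reads into and out of the exon, as a share of that average and the skipping reads together. It had 95% Wilson intervals of 54.1 to 70.9% in control, 90.6 to 95.7% in shptbp1 cells, 18.4 to 39.0% in shptbp2 cells and 94.1 to 98.2% in doubly depleted cells. Control and shptbp2 cells stood apart from each other and from both libraries with Ptbp1 depleted, whose intervals overlapped. Against control the difference was 30.8 percentage points in shptbp1 cells, -35.2 in shptbp2 cells and 33.6 in doubly depleted cells.

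The deposited SpliceTrap ratio for the same exon was 64.9%, 93.8%, 32.2% and 96.9%. Exons were called at 20 points by junctions and 0.2 in this ratio, and this exon was the only member exon called in any comparison. Of all cassette events measured in shptbp1 cells, 0.206% were called higher and 0.0862% lower. The shares were 0.0286% and 0.0965% in shptbp2 cells and 0.301% and 0.196% in doubly depleted cells. By the ratio alone, a 145-nt exon in the early part of Gabbr1 would also be called lower, with differences of -21.3 points in shptbp1 and -23.5 in doubly depleted cells. It had only 7.5 junction reads in control, below the minimum of 20.

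The skipping junction is counted again in the event of the next exon, and the counts there differed (52, 44, 56 and 25 reads). With those reads inclusion was 59.8% in control, 88.8% in shptbp1 cells, 25.3% in shptbp2 cells and 92.2% in doubly depleted cells. The next exon spans 133 nt (chr17:37204721-37204853, mm9). Reads that joined the exon before the 151-nt exon to the exon after the 133-nt exon, leaving out both, numbered 6, 4, 17 and 0. In that event inclusion of the 133-nt exon was 93.7% in control, 97.9% in shptbp1 cells, 79.9% in shptbp2 cells and 100% in doubly depleted cells. In the event that starts from the 151-nt exon it was 98.2%, 100%, 94.8% and 100%. So where reads held the 151-nt exon, the 133-nt exon was nearly always present in all 4 libraries. A transcript without both exons reads through 578 codons to a stop in exon 17, 688 bases before the last junction.

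**Figure D2:**
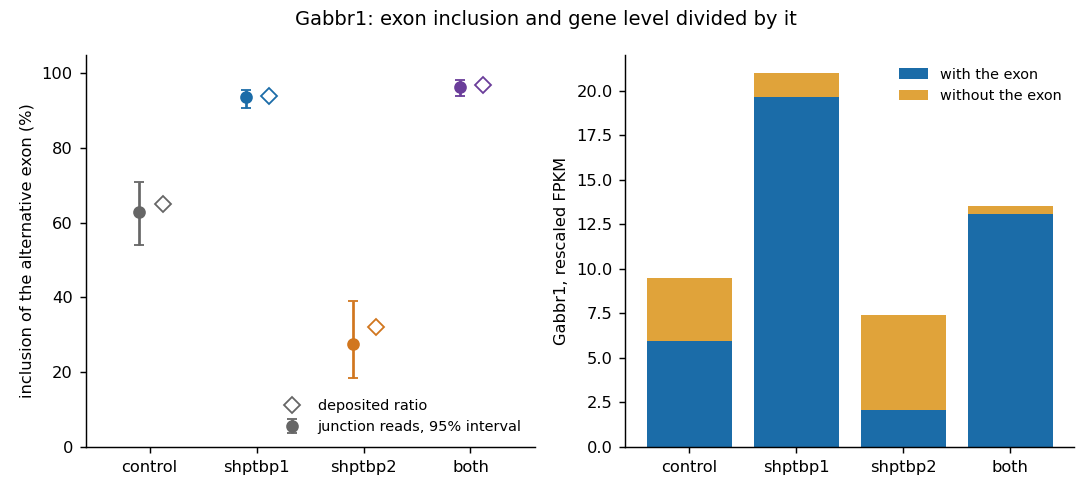
Gabbr1 alternative exon in each library (1 per group). Left, inclusion in percent, with circles for junction reads and their 95% Wilson interval and diamonds for the deposited ratio; right, rescaled gene FPKM divided into transcripts with and without the exon by the junction share. The share without the exon is 72.5% in shptbp2 cells and 3.61% in doubly depleted cells.

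Gene level and inclusion lay on the same side of control in all 3 knockdowns, but not in proportion. Doubly depleted cells had the highest inclusion and a gene level of 143% of control, and shptbp1 cells, with similar inclusion, 221%. Gene FPKM in control and shptbp2 cells includes an assembled 5′ fragment that ends before the exon, at 1.76 and 1.60 FPKM. No such fragment was assembled in shptbp1 or doubly depleted cells, so FPKM ratios to control depend in part on the assembly. Multiplying gene FPKM by inclusion gave 5.95 FPKM of transcripts with the exon in control, 19.6 in shptbp1 cells, 2.05 in shptbp2 cells and 13.1 in doubly depleted cells. Transcripts without the exon came to 3.53, 1.35, 5.39 and 0.49 FPKM. The exon-containing level was thus 3.30 times control in shptbp1 cells, 0.344 times in shptbp2 cells and 2.196 times in doubly depleted cells. Ranges that combine the ends of the FPKM and inclusion intervals were 2.56 to 4.33, 0.18 to 0.64 and 1.73 to 2.85. The skipped level was 0.381 times control in shptbp1 cells (0.19 to 0.79) and 0.139 times in doubly depleted cells (0.051 to 0.321). In shptbp2 cells it was 1.53 times control, with a range of 0.921 to 2.49 that includes no difference. In shptbp1 cells the exon-containing level gained more FPKM than the skipped level lost. By exon reads, which do not depend on the assembly, the gene level was 259% of control in shptbp1 and 174% in doubly depleted cells. On that scale the exon-containing level was 3.86, 0.332 and 2.68 times control in shptbp1, shptbp2 and doubly depleted cells. The skipped level was 0.446, 1.47 and 0.169 times control.

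The higher Gabbr1 level was not limited to the region of the exon. Over 11 junctions before it with at least 20 control reads, scaled reads in shptbp1 cells were 2.03 to 4.34 times control (median 2.75), and over 7 junctions after it 2.33 to 2.94 times (median 2.62). The 2 junctions of the exon itself stood at 4.59 and 5.26 times. The medians in shptbp2 cells were 0.694 before and 0.795 after, against 0.179 and 0.328 at the exon. In doubly depleted cells they were 1.77 and 1.70, against 3.34 and 3.54. The exon-skipping form was largely missed by the assembly. Transcripts assembled across the region carried the exon for 100% of their FPKM in control, where junction reads gave 62.8%, and for 82.2% in shptbp2 cells.

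**Figure D3:**
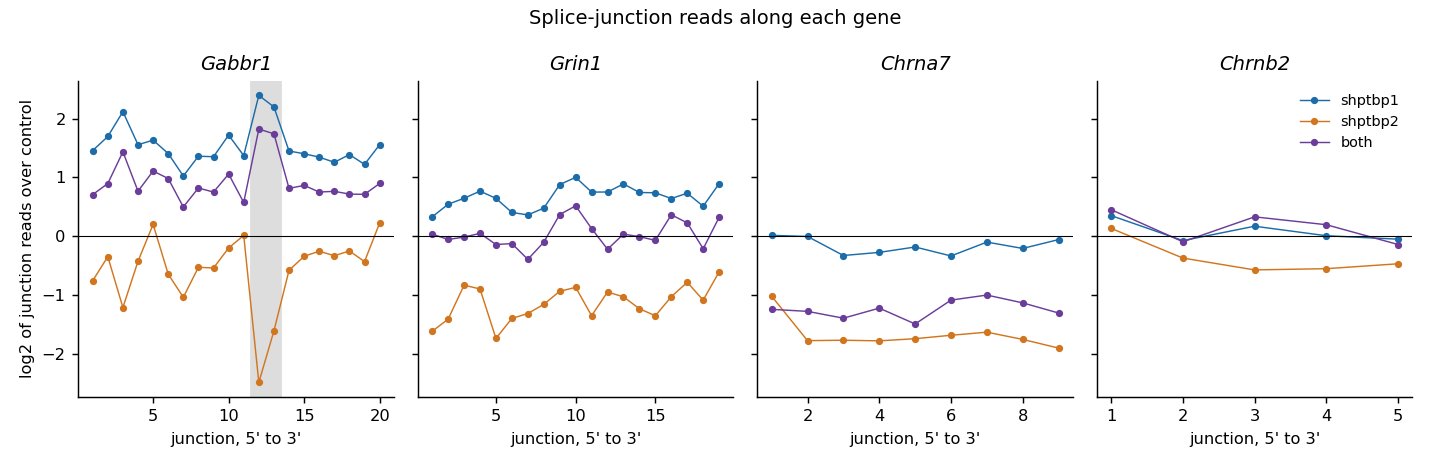
Log2 ratio of scaled splice-junction reads to control, along RefSeq junctions with at least 20 control reads, in order from 5′ to 3′ (20 in Gabbr1, 19 in Grin1, 9 in Chrna7, 5 in Chrnb2). Lines join junctions of 1 library; grey marks the junctions of the Gabbr1 alternative exon, which stand off the level of their neighbours in each knockdown.

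Genes with a frame-shifting exon called in the same direction as that of Gabbr1 had median levels near those of all genes in shptbp1 and doubly depleted cells. In shptbp2 cells their median was somewhat lower than that of all genes. In shptbp1 cells 45 measured genes had such an exon called higher. Of these, 20 were above control by exon reads, with a median log2 difference of -0.07 against -0.04 over all genes. Gabbr1 was the second highest of the 45, and 2 of the 45 were called higher by exon reads, near the 4.43% of all genes. Among 156 genes with a frame-keeping exon called higher, 64 were above control and the median was -0.07. For shptbp2 cells, 38 genes had a frame-shifting exon called lower, with 12 above control and a median of -0.12 against -0.00 over all genes; Gabbr1, at -0.40, was in place 28 from the highest. Among 62 genes with a frame-keeping exon called lower there, 36 were above control and the median was 0.05. For doubly depleted cells, 69 genes had a frame-shifting exon called higher, with 31 above control and a median of -0.05 against -0.02 over all genes, and Gabbr1 was again the second highest. Among 217 with a frame-keeping exon called higher, 85 were above control and the median was -0.10. These groups rest on called direction and exon length alone. Whether skipping or inclusion brings an early stop was worked out for Gabbr1 only. The medians therefore cannot tell how genes behave in which skipping brings an early stop.

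The 5 exons whose inclusion was most like that of the Gabbr1 exon, among 69054 with at least 100 junction reads in each library, were in Exoc7 (2 exons), Scamp5, L1cam and Cert1. The nearest, a 39-nt exon of Exoc7, an exocyst subunit, was at 57.1%, 85.2%, 36.9% and 87.4%, within 9.35 points of the Gabbr1 exon in every library. The 157-nt exon of Scamp5, a secretory membrane protein, was at 57.8%, 90.3%, 22.3% and 83.8%, and is the only one of the 5 whose length is not a multiple of 3. The genes most like Gabbr1 by the 3 exon-read differences, of 10394 compared, were Gfra1, a GDNF co-receptor, Dmtn, Slc7a4, Pcdha3 and Als2cl. Gfra1 differed from control by 1.36, -0.29 and 0.73 on the log2 scale, and Gabbr1 by 1.37, -0.40 and 0.80. This likeness covers 3 differences that share the control library.

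Grin1 was also highest in shptbp1 cells and lowest in shptbp2 cells. It stood at 6.82 FPKM in control (5.80 to 7.84), 13.0 in shptbp1 cells (12.3 to 13.7), 3.52 in shptbp2 cells (3.11 to 3.94) and 8.20 in doubly depleted cells (7.49 to 8.92). The intervals of control and doubly depleted cells overlapped and the others did not. Exon reads came to 34.7, 58.0, 17.0 and 36.6 CPM. The level in shptbp1 cells was 1.67-fold higher than control by exon reads, under the threshold. Its exon reads in shptbp2 cells were 2.03-fold lower and called, as were 2.06% of all genes measured. There it was 1.73-fold lower on the FPKM + 1 scale (51.7% of control by FPKM itself) and not called. Scaling by total reads, or a pseudocount of 1, ended the exon-read call.

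The difference ran along the whole Grin1 transcript. In shptbp1 cells all 19 RefSeq junctions with at least 20 control reads were above control (1.26 to 2.00 times, median 1.66). All 19 were below control in shptbp2 cells (0.30 to 0.658 times), and in doubly depleted cells 9 of 19 were above, around a median of 0.995. From shptbp2 to doubly depleted cells the log2 difference was 1.10 by exon reads, next to 0.74 from control to shptbp1 cells. Ptbp2 was also higher after each of these steps, at 41.6 against 25.4 CPM and 193 against 97.6 CPM. The part of either gene in the Grin1 difference was not tested.

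A pair of alternative coding exons of Grin1 is known to change the receptor, N1 in the extracellular amino-terminal domain and C1 in the cytoplasmic tail. They are printed to show what the junction reads tell apart; capitals mark the exon and small letters its neighbours in the transcript (GENCODE M21, GRCm38, minus strand). N1 is 63 nt at chr2:25166863-25166925 and C1 is 111 nt at chr2:25149958-25150068 in mm9. Both lengths are multiples of 3.
Grin1 N1 exon with its mRNA neighbours: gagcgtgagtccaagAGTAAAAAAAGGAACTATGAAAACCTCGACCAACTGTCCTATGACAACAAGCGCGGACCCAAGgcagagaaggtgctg
Grin1 C1 exon with its mRNA neighbours: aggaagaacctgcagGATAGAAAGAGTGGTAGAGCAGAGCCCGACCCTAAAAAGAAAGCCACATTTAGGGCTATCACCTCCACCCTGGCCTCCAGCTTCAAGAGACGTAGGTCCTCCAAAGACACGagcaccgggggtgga
N1 was mostly skipped in every library. Its inclusion was 5.22% in control, 3.30% in shptbp1 cells, 3.76% in shptbp2 cells and 10.5% in doubly depleted cells. The value in doubly depleted cells was the highest, but its interval (6.76 to 16.8%) overlapped that of control (2.55 to 10.4%). The sides of the exon differed: reads out of N1 numbered 5, 5, 5 and 24 in the 4 libraries, and reads into it 9, 7, 0 and 7. The junction into N1 is counted again in the event of the 177-nt exon before it, at 14, 22, 8 and 14 reads. The junction out of N1 is counted again in the event of the 101-nt exon after it, at 5, 6, 6 and 21. Against control, the higher value in doubly depleted cells thus rests on the junction out of N1 alone.

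C1 was included in most transcripts and least in shptbp1 cells. Reads that skipped C1 to the nearer acceptor of the last exon numbered 3 in control, 28 in shptbp1 cells, 2 in shptbp2 cells and 9 in doubly depleted cells. Inclusion in that event was 97.6% (94.4 to 99.6%), 86.6% (81.2 to 90.5%), 96.9% (89.6 to 99.2%) and 93.8% (88.5 to 96.7%). In that event the interval in shptbp1 cells lay below that of control with no overlap, and the difference of -11.1 points was under the threshold of 20. Skipping reads to the farther acceptor numbered 13, 20, 6 and 15. As a share of reads into C1 and both skipping paths together, that path took 7.18%, 7.49%, 7.23% and 8.29% in the 4 libraries. The path to the nearer acceptor took 1.66%, 10.5%, 2.41% and 4.97%. C1 itself took 91.2%, 82.0%, 90.4% and 86.7%. With both skipping paths counted, the intervals of control (86.12 to 94.5%) and shptbp1 cells (77.0 to 86.16%) overlapped narrowly.

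**Figure D4:**
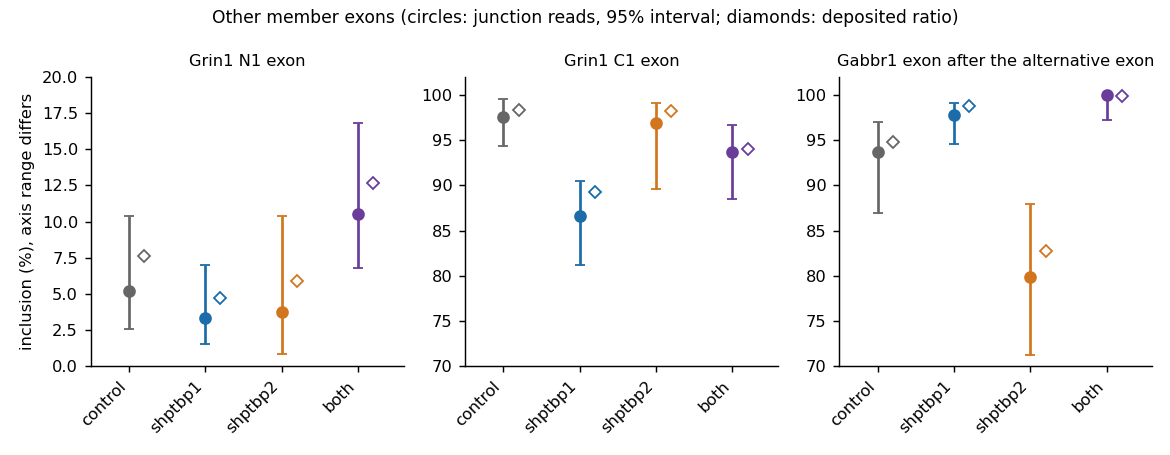
Inclusion in percent of Grin1 N1, Grin1 C1 and the Gabbr1 133-nt exon in the 4 libraries (vertical ranges differ and the middle and right axes start at 70). Circles are junction reads with 95% Wilson intervals and diamonds the deposited ratio; C1 is lowest in shptbp1 cells at 86.6% and the Gabbr1 exon in shptbp2 cells at 79.9%.

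The genes most like Grin1 by exon reads were Dnah1, an axonemal dynein heavy chain, Dnajc6 (auxilin), Vamp1, a synaptic vesicle SNARE, Arhgef17 and Sarm1. Dnah1 differed from control by 0.75, -1.04 and -0.02 on the log2 scale, and Grin1 by 0.74, -1.02 and 0.08. Gabbr1 was not among them: it came in place 829 of 10394, with a largest gap of 0.72.

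Chrna7 had lower levels with Ptbp2 depleted, and its level in shptbp1 cells depended on the measure. Its FPKM was 24.3 in control (23.8 to 24.7), 33.7 in shptbp1 cells (30.8 to 36.6), 8.74 in shptbp2 cells (8.18 to 9.30) and 11.7 in doubly depleted cells (11.4 to 12.1). Exon reads were 43.9, 39.3, 14.1 and 19.3 CPM. Libraries with Ptbp2 depleted were below both others by either measure. Relative to control, shptbp2 cells had 2.60-fold less Chrna7 on the FPKM + 1 scale and 3.09-fold less by exon reads. Chrna7 was the 1 member called lower there by both rules, as were 0.941% of all genes measured by both (1.95% by FPKM). No member was called higher there, where 0.13% of genes were higher by both rules and 0.891% by FPKM. In doubly depleted cells it was 2.27-fold lower by exon reads and called, where 1.5% of all genes were called lower. On the FPKM + 1 scale it was 1.99-fold lower, just short of the threshold that 1.32% of all genes passed. Its FPKM itself was 48.3% of control. By FPKM it was called when centred on the median of all genes or with a pseudocount of 0.1.

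In shptbp1 cells the log2 difference of Chrna7 was 0.46 by FPKM and -0.16 by exon reads, or 0.06 by exon reads scaled to total reads. Neither passed the threshold. The assembly differed there: a 2-exon fragment of 4149 bases at the 3′ end held 16.0 of the 33.7 FPKM, and the 10-exon RefSeq transcript 9.42. In the other 3 libraries a single 10-exon transcript with a longer 3′ end, 5151 to 5156 bases, held most or all of the FPKM, and the RefSeq transcript of 2091 bases was listed at 0. Weighting each transcript by its length, assembled bases in shptbp1 cells came to 1.03 times control. In shptbp2 cells they came to 0.361 times and in doubly depleted cells to 0.483 times, close to the other measures. Reads over the last junction of Chrna7 numbered 298 in control, 267 in shptbp1 cells, 77 in shptbp2 cells and 133 in doubly depleted cells. Of 9 junctions, 1 was above control in shptbp1 cells after scaling and none in the other comparisons.

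All 8 listed middle exons of Chrna7 were included at 97.5% or more in every library, and none ranged over 10 points. Outside the list, the assembly held an internal exon of 218 nt (chr7:70246828-70247045, mm9, minus strand) in 2 libraries. Transcripts with it stood at 2.59 FPKM in shptbp1 cells (1.84 to 3.34) and 0.759 in shptbp2 cells (0.419 to 1.10). None with it was assembled in control or doubly depleted cells, and no junction reads are listed for it, so its inclusion was not measured here. The genes most like Chrna7 were Mpc1, a mitochondrial pyruvate carrier subunit, Astn2, Cpne3, Lgi1, a secreted synaptic protein, and Prkar2b, a regulatory subunit of protein kinase A. Mpc1 differed from control by -0.21, -1.61 and -1.13 and Chrna7 by -0.16, -1.63 and -1.18 on the log2 scale of exon reads.

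Chrnb2 varied least of the members. It stood at 11.5 FPKM in control (11.2 to 11.7), 13.5 in shptbp1 cells (13.1 to 13.8), 8.95 in shptbp2 cells (8.70 to 9.20) and 13.3 in doubly depleted cells (13.0 to 13.6). Levels were lowest in shptbp2 cells, and the intervals of shptbp1 and doubly depleted cells overlapped. Exon reads were 60.9, 64.8, 47.6 and 65.4 CPM, and the log2 differences from control 0.09, -0.35 and 0.10. None passed the threshold by either measure. All 4 listed middle exons were included at 99.4% or more. The closest genes were Clcn3, a chloride/proton exchanger, Med14, Mgrn1, 1600014C10Rik and Tspan33, all within 0.046 of Chrnb2 in every log2 difference.

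The order of the members by FPKM changed between libraries. In control it was Chrna7, Chrnb2, Gabbr1 and Grin1, with no overlap of intervals between neighbours. In shptbp1 cells Gabbr1 came after Chrna7, and Chrnb2 and Grin1 had overlapping intervals. In shptbp2 cells Chrnb2 and Chrna7 overlapped at the top and Grin1 was lowest. In doubly depleted cells Gabbr1 and Chrnb2 overlapped at the top, Chrna7 came after them and Grin1 was lowest. By exon reads per kilobase per M, Grin1 (8.32) was above Gabbr1 (7.26) in control, the reverse of FPKM. In shptbp1 cells that scale put Gabbr1 and Chrna7 level at 18.8 each, and Grin1 (13.9) above Chrnb2 (12.03).

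Partner subunits of Gabbr1 and Grin1 were at or near 0. Gabbr2 had 0, 2, 5 and 2 exon reads in control, shptbp1, shptbp2 and doubly depleted cells. Grin2a, Grin2b and Grin3a each had at most 2 reads in any library, and Grin2c 6, 18, 6 and 14. Grin2d was the one GluN2 gene above 0.5 CPM, at 0.65, 1.10, 0.637 and 0.685 CPM, and Grin3b was at 0.75, 1.37, 1.54 and 1.46 CPM though listed at 0 FPKM. These compare with 34.7 CPM for Grin1 in control. At these depths a gene without reads in control allows up to 3 reads, and the counts above are no ground for a change between groups.

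Of the nicotinic partners, Chrna3, the α3 subunit of ganglionic receptors, was the most abundant at 37.7, 55.1, 33.8 and 36.9 FPKM. It was 1.30-fold higher by exon reads in shptbp1 cells and not called in any comparison. Chrna5, an accessory subunit, was at 1.61, 3.14, 1.13 and 2.27 CPM and was not called either. Chrna4, the usual brain partner of β2, had 12, 28, 3 and 25 reads, and Chrnb4 was at 0.492, 0.548, 0.464 and 0.488 CPM. Ric3, a chaperone that helps α7 assemble, was at 48.3, 45.9, 51.2 and 57.6 CPM while Chrna7 was at 43.9, 39.3, 14.1 and 19.3 CPM.

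The members were set beside 107 genes of receptor subunits and partners, the 4 members included, of which 69 were under 0.5 CPM in every library. By exon reads 31 were measured in shptbp1 cells: 7 were called higher, against 4.43% of all genes, and none lower, against 0.354%. Their median log2 difference was 0.54 against -0.04 over all genes. The 7 were Gabbr1, Gabrd, Gria2, Grik3, Chat, Ache and Shank3. In shptbp2 cells none of 29 was called higher (0.902% of all genes) and 3 were called lower (2.06% of all genes): Grin1, Chrna7 and Gria2, with a median of -0.32 against -0.00. In doubly depleted cells 1 of 28, Shank3, was called higher (1.8% of all genes) and 1, Chrna7, lower (1.5%), with a median of 0.09 against -0.02. A gene near the minimum is measured only where it is high, so these counts describe the measured genes alone. Gabrd was under 0.5 CPM in control and passed the minimum in shptbp1 cells only through its level there. It could thus be called there only as higher. The list of transmitter synthesis and transport, with Chat and Ache, had 5 measured genes in shptbp1 cells and 4 in doubly depleted cells. The members were picked with these values in view, and Gabbr1, Grin1 and Chrna7 are among the genes called. Counts and medians here and by both measures below are therefore not independent of that choice.

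Fewer of the 107 were measured by FPKM, 18 in shptbp1 cells and 16 in each of the other knockdowns. By both measures 2 were called higher in shptbp1 cells, Gabbr1 and Gria2, where 0.534% of all genes were, and 1 was called lower in shptbp2 cells, Chrna7, where 0.941% were. None was called in doubly depleted cells, where 0.341% of all genes were called higher and 0.639% lower. Gria2, an AMPA receptor subunit, stood at 2.30, 5.72, 1.54 and 2.25 FPKM and at 10.1, 24.7, 4.83 and 9.69 CPM. It passed the minimum of 3 FPKM only through shptbp1 cells, so its FPKM call there had to come from the library where it is high.

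**Figure D5:**
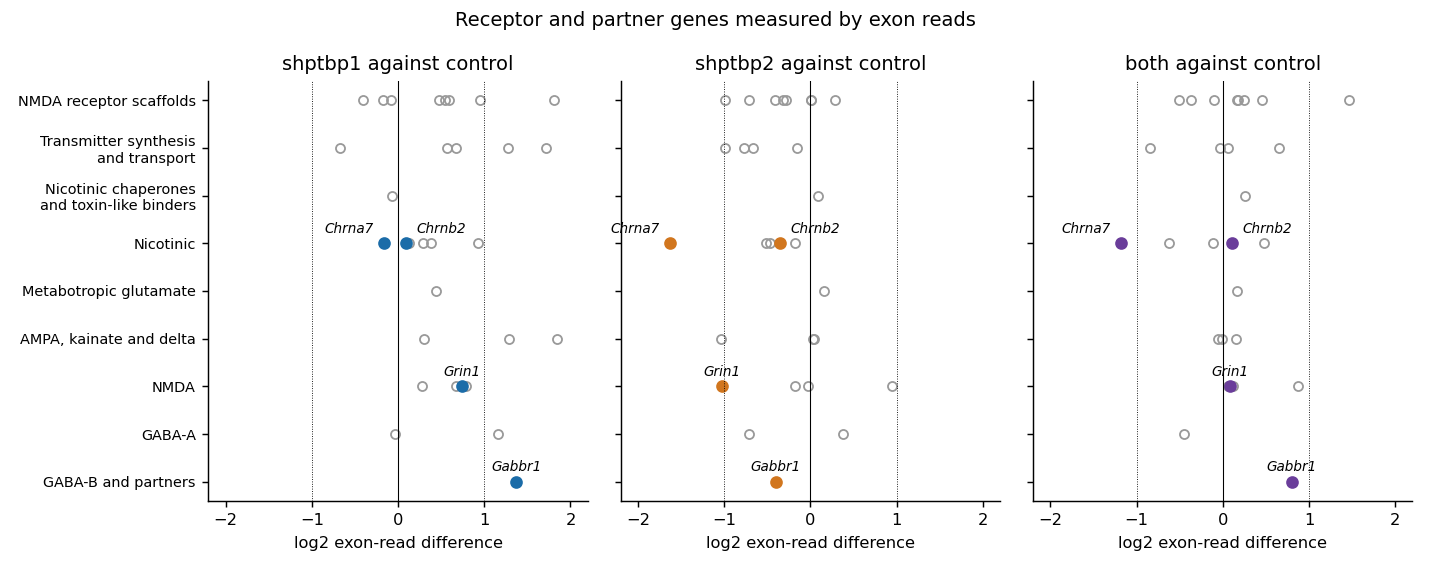
Log2 exon-read difference from control of each measured gene in 9 lists of receptor and partner genes, 1 panel per comparison. Filled circles are the members, open circles other genes, and dotted lines the 2-fold threshold; Gabbr1 lies right of it in shptbp1 cells, and Grin1 and Chrna7 left of it in shptbp2 cells.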

How the data were processed

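The 4 libraries of N2A cells, 1 per group, were read from per-library tables. Per the submitters' processing notes, CASAVA, TopHat and Cufflinks were used with mm9; versions are not given in the sources used here. The labels name a dUTP strand-specific TruSeq RNA protocol on total RNA. The authors deposited gene and transcript FPKM with 95% intervals from an assembly made for each library. The authors' deposited transcript files also carry the Cufflinks score of each assembled transcript, which was not used, and its coverage. The SpliceTrap tables, per the file headers, hold for each exon trio an inclusion ratio (a fraction), counts of reads over 3 junctions and a coverage signal per exon.

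Each FPKM was rescaled so that FPKM weighted by transcript length summed to the same total in every library, since the deposited sums differed by a factor of 0.882 to 1.31 from control. Differences are in log2(FPKM + 1), and fold values by FPKM are on that scale. Exon reads are coverage times exon size over 100, each exon once, scaled by median of ratios, with differences in log2(CPM + 0.1). Fold values by exon reads are on that scale. Genes were named by RefSeq transcript, and 94.8% of cassette trios by exon boundaries shared with RefSeq transcripts; loci with several symbols stayed unnamed. Inclusion needed 20 junction reads and has 95% Wilson intervals. Calls are as stated with the results. Named were the members, listed genes called by both measures, partner subunits, the 5 most alike genes (CPM of at least 1 in all libraries, smallest largest gap) and exons, and member exons ranging over 10 points or annotated N1 and C1. The markers, the 145-nt and 218-nt exons and genes called by exon reads alone were named after their values were seen. The members and lists were chosen with earlier results of these data known. Sequences come from GENCODE M21, matched by exon and intron lengths; a planned motif search around the exons was not run because no genome was used here. Scripts (Python 3.11.15, pandas 2.3.3, numpy 2.4.6) were tested on simulated data.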

Additional observations from a re-analysis of the deposited data

Results flagged for a closer look

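The exon results below have point values of opposite sign. For each, the point value of inclusion differed one way with 1 protein depleted alone and the other way on top of the other depletion, in junction reads and in the deposited ratio. Each rests on 1 library per group and the difference was not tested. Steps are named by the shRNA added, and the level of the other Ptbp gene differed across them too, as given above. In every case at least 1 of the steps joins libraries with overlapping intervals, so its direction is not shown.

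Ptbp2 depletion went with a change of -35.2 points for the Gabbr1 151-nt exon from control and 2.80 points from shptbp1 cells, a difference of 38.0 points. In the second step inclusion started at 93.6%. For the Gabbr1 133-nt exon, in the event that starts before the 151-nt exon, the steps were -13.8 and 2.14 points, a difference of 15.9 points. In the event that starts from the 151-nt exon the first step was -3.42 points and inclusion was 100% at both ends of the second.

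Grin1 C1, the 111-nt exon, moved by -0.682 points from control and 7.18 points from shptbp1 cells with Ptbp2 depleted, a difference of 7.86 points. Grin1 N1, the 63-nt exon, moved by -1.93 points with Ptbp1 depletion from control and 6.75 from shptbp2 cells. With Ptbp2 depletion it moved by -1.46 and 7.21 points; the difference is 8.68 points either way. The C1 step of -0.682 points and both N1 steps from control are smaller than the intervals of their inclusion. From shptbp1 to doubly depleted cells, reads into N1 stayed at 7 while reads out of it went from 5 to 24. As counted in the events of its neighbours, reads into N1 went from 22 to 14 and reads out of it from 6 to 21.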

How the results depend on the processing

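No paired analysis was possible because each group has 1 library, and no library could be left out. No alternative turned a called value around. By FPKM, members called higher in shptbp1 cells went from 1 to 0 with the deposited FPKM or a pseudocount of 5. Members called lower went from 1 to 2 in shptbp2 cells by assembled bases, and from 0 to 1 in doubly depleted cells with median centring, a pseudocount of 0.1 or assembled bases. By exon reads, members called lower in shptbp2 cells went from 2 to 1 with total scaling or a pseudocount of 1. Member exons called went from 1 to 2 in shptbp1 and doubly depleted cells by the ratio alone. Listed receptor genes called by exon reads alone were 7 higher in shptbp1 cells (2 by both measures), 3 lower in shptbp2 cells (1 by both), and 1 higher and 1 lower in doubly depleted cells (0 by both). The causes were not tested. Total scaling moved the median log2 difference of all genes from -0.04 to 0.17 in shptbp1 cells and from -0.02 to 0.12 in doubly depleted cells. The share of exon-read calls that were higher went from 54.6% to 77.3% in doubly depleted cells. In shptbp1 cells that share was already 92.6% (500 genes higher, 40 lower) and went to 98.8%. By FPKM, 119 genes were called higher there and 66 lower. Assembled bases and both recounts of skipping reads were chosen after seeing the data. The difference in inclusion of the Gabbr1 exon moved by less than its interval under every alternative run. The log2 difference of Gabbr1 in shptbp1 cells ranged from 0.84 to 1.32 by FPKM and from 1.32 to 1.59 by exon reads. Low read counts limit what can be said of N1, Gabbr2 and the GluN2 genes.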
